A study of Mus musculus with 16 samples.

Results

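The suppressor of cytokine signalling genes Socs1, Socs2, Socs3 and Cish encode inhibitors that cytokine receptors switch on against themselves, and their H3K27ac landscape was described here in mouse macrophages. H3K27ac is a histone acetylation found at active promoters and enhancers. All H3K27ac peaks with any base within 50 kb of an annotated start site of the 4 genes were taken. They came to 43 of 43533 peaks in untreated cells (Control), 49 of 40708 after interferon gamma (IFNγ), 51 of 44090 with the PARP inhibitor PJ34 and 48 of 42960 with IFNγ+PJ34. When the 4 lists were merged, they formed 59 of 55218 regions, of which 11 belonged to Socs1, 4 to Socs2, 23 to Socs3 and 21 to Cish.

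The cells were bone marrow-derived macrophages (BMDMs), primary macrophages grown in culture from C57BL/6 mice aged 8-12 weeks. Control cells were untreated, IFNγ cells received 100 ng/mL for 1 h, PJ34 cells received 20 µM of the inhibitor, and IFNγ+PJ34 cells received the same doses with PJ34 added 1 h before IFNγ. No gene was altered in any group, and PJ34 acts on PARP-1 and on related enzymes. The 2 ChIP replicates of a condition were merged by the authors into a single peak list, with matched input DNA as background. The spread between replicates is therefore not seen in any value here, and no test between conditions was possible. The 95% intervals of shares are exact (Clopper-Pearson), cover counting error alone and take neighbouring peaks as independent.

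Type I and type II cytokine receptors signal through JAK kinases, which phosphorylate STAT proteins. Phosphorylated STAT dimers enter the nucleus and bind GAS elements, and among the genes they induce are the SOCS genes, whose proteins then dampen the receptor or its kinases. SOCS1 inhibits JAK kinases and restrains the response to IFNγ, SOCS3 acts mainly on receptors of the interleukin-6 family, and CISH and SOCS2 are classical targets of STAT5 that restrain growth hormone and related receptors. PARP-1 attaches ADP-ribose to proteins, and the study addressed how blocking it changes the chromatin response to IFNγ.

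The sequences that carry STAT-type elements at the 4 genes are shown first, since the peak changes below are described around them. Each is written 5′ to 3′ on the strand of its gene (build mm10, GRCm38), in lower case, with matches to the GAS pattern TTCNNNGAA and to the interferon-stimulated response element (ISRE) pattern GAAANNGAAA in capitals. ISRE is the element of interferon regulatory factors, and it was searched for on both strands only after the data had been seen. The GAS pattern reads the same on both strands, and where the patterns overlap the capitals run on.
Socs1, 29.3 kb upstream, chr16:10814845-10814924: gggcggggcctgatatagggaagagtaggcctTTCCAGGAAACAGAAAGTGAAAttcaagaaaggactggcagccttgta
Socs1, 38.3 kb upstream, chr16:10823840-10823919: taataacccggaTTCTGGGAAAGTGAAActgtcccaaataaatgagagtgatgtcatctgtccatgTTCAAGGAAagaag
Socs1, 0.448 kb upstream, chr16:10785960-10786009: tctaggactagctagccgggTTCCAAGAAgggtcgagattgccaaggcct
Socs1, the 250 bases before the start, chr16:10785537-10785786: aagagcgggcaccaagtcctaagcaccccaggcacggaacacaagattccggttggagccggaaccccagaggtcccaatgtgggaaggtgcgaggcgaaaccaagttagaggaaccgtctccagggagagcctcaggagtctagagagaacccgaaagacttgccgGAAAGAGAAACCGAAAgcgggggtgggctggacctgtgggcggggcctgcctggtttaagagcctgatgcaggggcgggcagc
Cish promoter, chr9:107296654-107296683: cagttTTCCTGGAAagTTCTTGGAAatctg
Cish, 13.9 kb downstream, chr9:107312981-107313060: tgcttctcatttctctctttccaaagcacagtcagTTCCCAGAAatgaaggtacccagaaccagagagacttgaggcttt
Socs3 promoter, chr11:117969229-117969258: cggccgggcagTTCCAGGAAtcggggggcg
Socs2 promoter, chr10:95416899-95416928: gcggaTTCCTGGAAagTTCCTGGAAagcgg
Socs2, 24.5 kb downstream, chr10:95368477-95368556: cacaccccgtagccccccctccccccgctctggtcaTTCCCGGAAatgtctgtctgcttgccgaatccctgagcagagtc

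In the Socs1 element 29.3 kb upstream, 1 GAS match ran into 2 overlapping ISRE matches, and in that at 38.3 kb a GAS match overlapped an ISRE match. The Socs1 promoter held 2 overlapping ISRE matches that start 83 and 77 bases before the RefSeq start site (GRCm38.p6) and no GAS match in its 250 bases. Of 32851 RefSeq promoters of that length, 2.98% held an ISRE match, 0.180% held 2 or more, and 7.02% held a GAS match. Cish and Socs2 each carried the printed pair of GAS matches, spaced by a few bases, at their start sites. The 250 bases before the RefSeq start of Cish held no GAS match either, as its pair begins right after them. Those of Socs3 held 1. Short patterns recur by chance in long sequence, so the share of IFNγ peak windows of equal length that hold a match is given with each region below, and a match is a description of letters and not of a bound factor.

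The lists covered 42.5 to 52.6 Mb, with median peak widths of 634 to 732 bp and median fold enrichments of 5.26 to 6.32, and read depth is not given in them. Score and fold are therefore scaled differently in each list, and peaks are compared by percentile of score within a list, where a higher value means a higher score, and by rank, where 1 is the highest score. Scores are whole numbers and low ones are often tied, so a small step in a low score moves the percentile by several points. In Control, scores of 11 and 12 stood at percentiles of 3.96 and 11.5. The macrophage identity was checked by promoter peaks. All 10 macrophage markers had a peak within 1 kb of a start site in every list, at median percentiles of 91.2 to 98.2, and none of the 4 neutrophil, 4 fibroblast and 4 epithelial markers had one. Of 4 markers each, 2 to 3 T cell, 1 B cell and 2 dendritic cell markers had a promoter peak, the T cell ones Cd3e, Cd3d and Lck in IFNγ, and the part that other cells play in the results was not tested.

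Of the 4 genes, Socs1 had the most regions that were present in both lists with IFNγ and absent from both without it (chr16:10782240-10785536, minus strand, 1 annotated start site). It had 3 peaks in Control, 8 in IFNγ, 6 with PJ34 and 9 with IFNγ+PJ34. The covered length was 3.87 kb for Control, 10.0 kb for IFNγ, 8.27 kb for PJ34 and 16.6 kb for IFNγ+PJ34. The median of 21951 protein-coding genes was 3.27 kb in Control and 2.70 kb in IFNγ+PJ34, so that Socs1 had more marked sequence than 53.9% of genes in Control and 94.8% in IFNγ+PJ34. The Control and IFNγ+PJ34 lists were thus at opposite ends for this gene, with IFNγ and PJ34 between them.

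**Figure D1:**
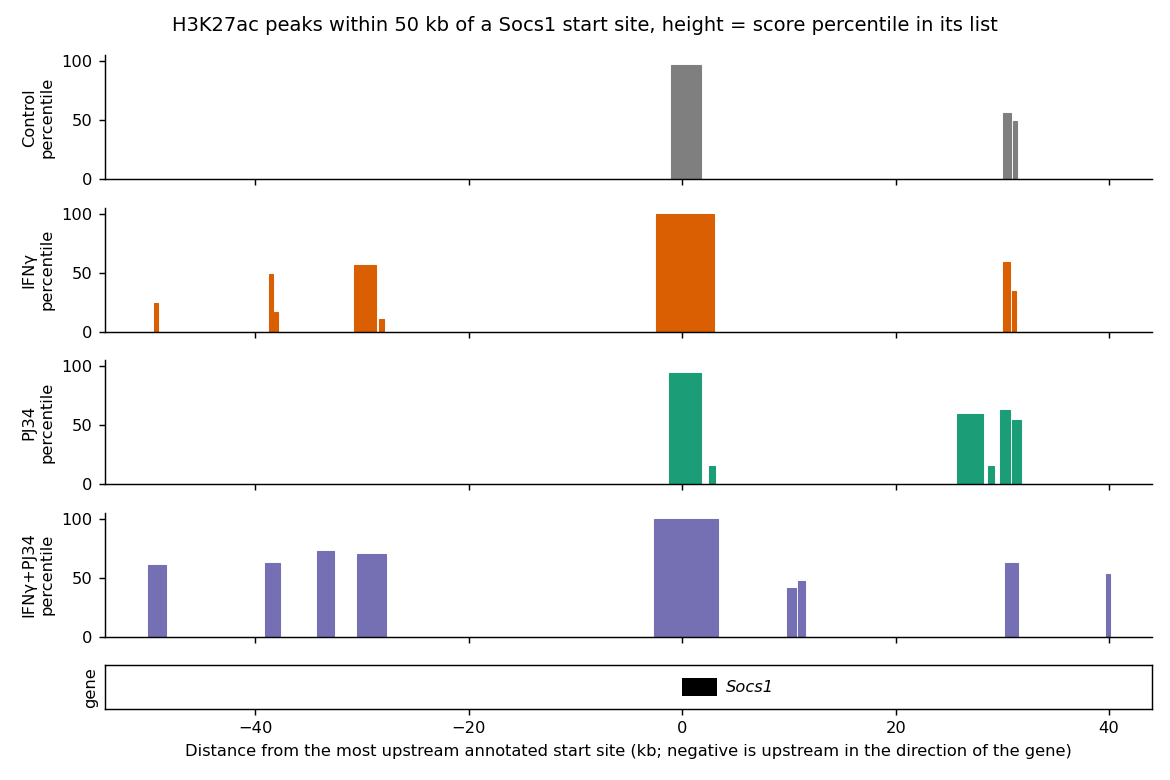
H3K27ac peaks around Socs1 in the 4 lists. The x axis gives the distance from the start site in kb (negative is upstream), bar width is the peak's extent and bar height its score percentile within its list, and the black bar is the gene. Upstream of the promoter, peaks are drawn in the IFNγ and IFNγ+PJ34 tracks and none in the Control and PJ34 tracks.

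The Socs1 promoter was marked in all 4 lists and was among the highest-scoring peaks of the genome in both lists with IFNγ. The best promoter peak ranked 1517 in Control, 18 in IFNγ, 2569 with PJ34 and 3 with IFNγ+PJ34. Its fold enrichment over local background was 62.8 in Control, 91.1 in IFNγ, 27.2 with PJ34 and 101 with IFNγ+PJ34, and its width 2773, 5452, 3032 and 6026 bp in the same order. The peaks with IFNγ reached farther on both sides than that of Control, and the peaks of all 4 lists held the start site itself. The length covered in the region (chr16:10782185-10788210) was 1.97 times as large in IFNγ as in Control and 1.71 times as large in IFNγ+PJ34 as in PJ34. The region held 4 GAS and 4 ISRE matches, and 85.6% of windows of that length held at least 1 GAS and 60.1% at least 1 ISRE match.

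Upstream of Socs1, 3 regions, 2 of which hold the GAS and ISRE elements printed above, were found in both lists with IFNγ and in neither other list. The region 29.1 kb upstream (chr16:10813289-10816288, intergenic) stood at the 56.3 percentile in IFNγ with a fold of 6.95, and at the 70.5 percentile in IFNγ+PJ34 with a fold of 13.2. Its covered length was 2501 bp in IFNγ and 2735 bp in IFNγ+PJ34. The region 38.5 kb upstream (chr16:10823209-10824669, intergenic) stood at the 48.7 percentile in IFNγ and 62.9 in IFNγ+PJ34, with folds of 5.77 and 9.93. The region 49.6 kb upstream (chr16:10833872-10835626) holds the promoter of Rmi2, a member of the dissolvasome complex that resolves DNA crossovers, and stood at the 24.3 percentile in IFNγ and 61.0 in IFNγ+PJ34. In IFNγ it covered 296 bp and in IFNγ+PJ34 1755 bp. In all 3 the percentile, the fold and the covered length were higher in IFNγ+PJ34 than in IFNγ. Between the first 2 lay another region, 33.7 kb from the start (chr16:10818153-10819747), which was found in IFNγ+PJ34 alone, at the 72.9 percentile with a fold of 13.1. No list had a peak between the promoter region and the region at 29.1 kb, where the sperm protamine genes Prm1, Prm2 and Prm3 lie.

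Windows of 3000 bp around IFNγ peaks held a GAS match in 63.0%, the stricter TTCCNGGAA in 10.2% and an ISRE match in 37.9%, and the region 29.1 kb upstream held 2 GAS matches, 1 of them strict, and 2 ISRE matches. The region 38.5 kb upstream held 2 GAS matches and 1 ISRE match, where 38.8% and 22.0% of windows of 1461 bp held at least 1. The GAS match there at chr16:10823845-10823853 lies inside the IFNγ+PJ34 peak and outside the IFNγ peaks. The Rmi2 promoter region held 1 strict GAS match, against 6.53% of windows of 1755 bp, and no ISRE match. That strict match also lies inside the IFNγ+PJ34 peak and outside the IFNγ peak. Just past the 50 kb limit, a region that starts 52.0 kb upstream was found in all 4 lists, at the 3.96 percentile in Control, 69.8 in IFNγ, 25.3 with PJ34 and 67.8 with IFNγ+PJ34. The next regions outside the limit lay 51.6 kb from Socs3 (IFNγ+PJ34 alone, percentile 8.96), 64.3 kb from Cish (Control and PJ34, at 11.5 and 15.3) and 68.6 kb from Socs2 (all lists, at 88.6 to 93.1).

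Downstream of Socs1 the lists differed in another way. The region 30.6 kb downstream (chr16:10753783-10755724) was found in every list at percentiles of 55.9 in Control, 59.3 in IFNγ, 62.8 with PJ34 and 62.9 with IFNγ+PJ34. Beside it, 2 regions at 27.4 and 28.8 kb were found in PJ34 alone, the former 2443 bp wide at the 59.9 percentile. A further 3 regions at 10.5, 11 and 39.9 kb were found in IFNγ+PJ34 alone, at percentiles of 41.0, 47.3 and 53.0. All 11 Socs1 regions are thereby accounted for.

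Of the 8 Socs1 peaks in IFNγ, 5 were absent from Control (62.5%, 95% interval 24.5 to 91.5), against 16.8% of all IFNγ peaks. IFNγ peaks absent from Control are called gained below. All 5 were overlapped by a peak in IFNγ+PJ34 and none by a peak in PJ34 (0 of 5, 95% interval 0 to 52.2). Of the gained peaks of the whole list, IFNγ+PJ34 held 38.8% and PJ34 held 43.6%. The 5 came from 3 neighbouring regions, so they are not independent. Regions held by both lists with IFNγ and by no other made up 2.29% of all regions, and 3 of the 11 at Socs1. As many as 3 such regions lay within 50 kb of 70 of 21951 genes (0.319%), and 5 or more gained peaks within 50 kb of 1.54% of genes. With PJ34 in both lists, 7 of the 9 Socs1 peaks in IFNγ+PJ34 were absent from PJ34 (77.8%, 95% interval 40.0 to 97.2), against 25.7% of all IFNγ+PJ34 peaks. In the reverse direction, none of the 3 Control peaks was absent from IFNγ (95% interval 0 to 70.8, which includes the 31.7% of all Control peaks).

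**Figure D2:**
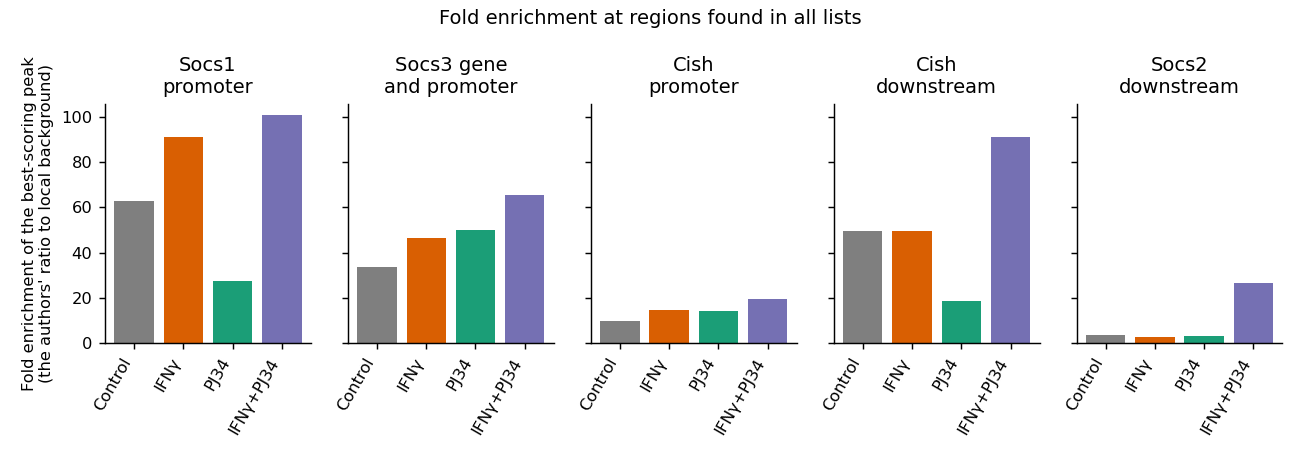
Fold enrichment of the best-scoring peak in 5 regions that were found in all 4 lists. Bars are the single value of each list on a linear axis from 0, with no replicate error. The panels, the promoters and the highest-scoring or sole distal regions of Cish and Socs2, were picked after their values were seen, and IFNγ+PJ34 has the tallest bar in each, as in 13 of the 20 regions near the 4 genes found in all lists. At Socs1 and 14 kb downstream of Cish the PJ34 bar is the lowest at 27.2 and 18.4.

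Socs3 lay in the most heavily marked neighbourhood of the 4 genes (chr11:117966079-117970047, minus strand, 3 start sites). It had 17 peaks in Control, 24 in IFNγ, 24 with PJ34 and 19 with IFNγ+PJ34, covering 38.8, 41.2, 50.8 and 40.4 kb in the same order. Between 99.6% and 99.9% of protein-coding genes had less. The Socs3 promoter was marked in every list. Its percentile was 91.8 in Control, 97.2 in IFNγ, 95.4 with PJ34 and 99.0 with IFNγ+PJ34, with folds of 33.6, 46.5, 49.8 and 65.6. The peaks joined into a region of 13772 bp (chr11:117957528-117971299) that covers the gene and extends downstream of it, with 13314 to 13639 bp covered in each list, so its length hardly differed between lists while its percentile was lowest in Control. It held 10 GAS matches, 4 of them strict, and no ISRE match. Of windows of that length, 35.3% held a strict match.

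Pgs1, which makes a precursor of cardiolipin in mitochondria, starts 16.2 kb upstream of Socs3, and its promoter region (chr11:117985841-117996673) was the best-scoring of the neighbourhood in each list. Its percentile was 99.0 in Control, 99.4 in IFNγ, 99.3 with PJ34 and 99.9 with IFNγ+PJ34. Between the 2 promoters lay regions 4.62 and 9.28 kb upstream of Socs3. The nearer (chr11:117971905-117977839) stood at 74.8 in Control, 85.9 in IFNγ, 86.4 with PJ34 and 94.8 with IFNγ+PJ34. The farther (chr11:117977935-117981500) stood at 90.3, 94.4, 96.7 and 96.3 in the same order. By percentile Control was the lowest list at the promoter, at both intermediate regions and at the Pgs1 promoter. By fold the lowest list was IFNγ at the farther intermediate region (29.7, against 36.4 in Control) and PJ34 at the Pgs1 promoter (67.7, against 74.7 in Control). Downstream, the region at 22.1 kb (chr11:117944278-117950617) stood at 88.5, 92.7, 94.9 and 89.2.

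**Figure D3:**
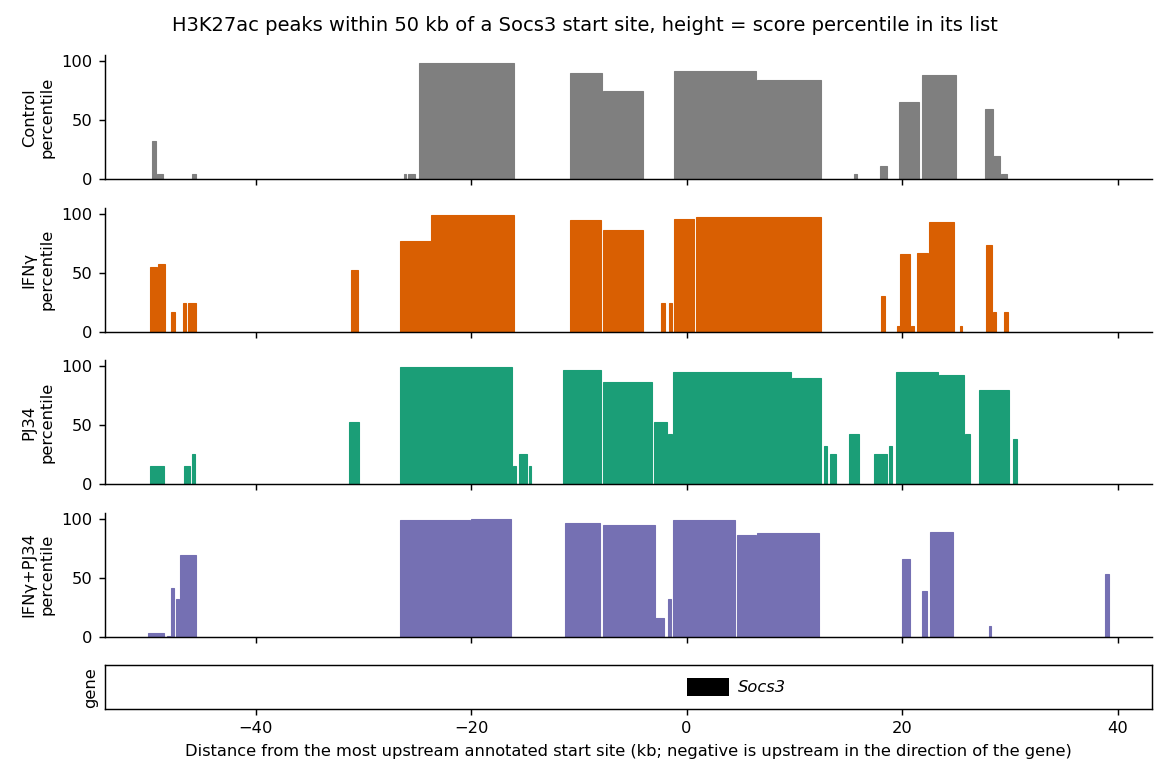
H3K27ac peaks around Socs3 in the 4 lists, drawn as distance from the most upstream start site in kb against score percentile, with the gene as a black bar. Broad peaks over the gene and upstream of it are drawn in all 4 tracks, and the PJ34 track holds additional short bars downstream of the gene.

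Gained peaks at Socs3 followed another pattern than those at Socs1. Of 24 IFNγ peaks 6 were absent from Control (25.0%, 95% interval 9.77 to 46.7, which includes the 16.8% of all IFNγ peaks), and 6 or more gained peaks were found near 0.856% of genes. Of the 6, IFNγ+PJ34 held 4 (66.7%, 95% interval 22.3 to 95.7, against 38.8% of all gained peaks) and PJ34 held 5 (83.3%, 95% interval 35.9 to 99.6, against 43.6%). They were short and low, 213 to 667 bp wide at percentiles of 4.55 to 52.2, and 3 of them lay in merged regions that also held a Control peak. When a peak within 1 kb counted as shared, 1 of the 6 was still absent from Control, whereas at Socs1 all 5 were. The difference between the genes was not tested. One short region 47.7 kb upstream, in an intron of Pgs1 (chr11:118017478-118017863), was held by the 2 lists with IFNγ alone, at the 17.0 and 41.0 percentiles. A region 30.8 kb upstream (chr11:118000446-118001331), close to a further Pgs1 start site, was found in IFNγ and PJ34 alone, at 52.2 and 52.9.

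Of the 4 genes, Socs3 had the most regions found in PJ34 alone, all of them short. Of 24 PJ34 peaks 11 were absent from Control (45.8%, 95% interval 25.6 to 67.2), against 19.5% of all PJ34 peaks. Regions found in PJ34 alone numbered 7 of 23 at Socs3 and 8.93% of all regions. The 7 were 225 to 773 bp long, at percentiles of 15.3 to 42.5, and 5 of them lay 12.0 to 29.6 kb downstream. Of 24 IFNγ peaks, 7 were absent from IFNγ+PJ34 (29.2%, 95% interval 12.6 to 51.1), against 24.1% of all IFNγ peaks.

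Among the 9 Socs3 regions in both Control and IFNγ, 5 stood more than 10 percentile points higher in IFNγ and none more than 10 lower, where 14.9% and 28.7% of all such regions did. The 5 higher ones were the regions at 4.62 kb upstream (by 11.1 points), 27.3 kb downstream (13.6), 17.4 kb downstream (18.3), 46.7 kb upstream (20.3) and 48.8 kb upstream (24.9). Some of these rest on low scores. The region at 17.4 kb scored 12 in Control and 15 in IFNγ, while its covered length was 638 and 327 bp. That at 46.7 kb scored 11 in Control and 14 in IFNγ, with folds of 2.91 and 3.99. Of 9 Socs3 regions in PJ34 and IFNγ+PJ34, 1 stood higher by more than 10 points in IFNγ+PJ34 (11.1%, interval 0.281 to 48.2). Another 3 stood lower by more than 10 points (33.3%, interval 7.49 to 70.1). Both intervals include the shares of all such regions, 22.1% and 30.9%. The 1 that stood higher was the region 46.7 kb upstream (chr11:118015545-118017037), at 3.96 in Control, 24.3 in IFNγ, 25.3 with PJ34 and 69.7 with IFNγ+PJ34. The region 27.3 kb downstream (chr11:117940102-117942885) was at 59.7 in Control, 73.3 in IFNγ, 80.0 with PJ34 and 8.96 with IFNγ+PJ34, and it covered 2784 bp in PJ34 but 199 bp in IFNγ+PJ34.

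Among regions near Cish in both lists, those that stood more than 10 percentile points lower in IFNγ than in Control lay upstream of it, and those more than 10 points higher lay at its promoter or downstream (chr9:107296026-107302784, plus strand, 5 start sites). It had 21 peaks in Control, 16 in IFNγ, 19 with PJ34 and 17 with IFNγ+PJ34, covering 20.4, 13.0, 18.1 and 14.8 kb. Both lists with IFNγ held less marked sequence than both without it, as did the lists as a whole, where the median gene had 3.27, 2.71, 2.91 and 2.70 kb. None of the 16 IFNγ peaks was gained (95% interval 0 to 20.6, which includes the 16.8% of all IFNγ peaks), and 7 of 21 Control peaks were absent from IFNγ (33.3%, 95% interval 14.6 to 57.0), near the 31.7% of all Control peaks. Of the 7, 6 lay upstream in the introns and exons of Mapkapk3, a stress-activated kinase gene that runs away from Cish, and 1 at the promoter of 6430571L13Rik.

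The Cish promoter (chr9:107295427-107297692) stood at the 62.7 percentile in Control, 82.3 in IFNγ, 80.7 with PJ34 and 84.2 with IFNγ+PJ34. The folds were 9.72, 14.5, 13.9 and 19.3, so Control was the lowest list on both measures. The region held 5 GAS matches, 2 of them strict, where 8.07% of windows of 2266 bp held a strict match. Other regions in both Control and IFNγ that stood more than 10 points higher in IFNγ lay downstream, at 6.72 kb (by 22.8 points) and 12.8 kb (by 46.9). That at 6.72 kb had low scores, 12 in Control and 16 in IFNγ, and stood at 15.3 with PJ34 and 15.6 with IFNγ+PJ34. That at 12.8 kb stood at 11.5 in Control, 58.4 in IFNγ and 56.3 with PJ34, and IFNγ+PJ34 had no peak there. Of 11 Cish regions in both Control and IFNγ, 3 stood higher in IFNγ, the promoter included (27.3%, 95% interval 6.02 to 61.0), and 4 lower (36.4%, 95% interval 10.9 to 69.2). Both intervals include the shares of all such regions, 14.9% and 28.7%. The 4 that stood more than 10 points lower all lay upstream within Mapkapk3, at 15.7 kb (by -37.0 points), 28.0 kb (-36.7), 34.7 kb (-25.5) and 32.3 kb (-10.2). Those at 15.7 and 34.7 kb had their summits within 1 kb of annotated Mapkapk3 start sites, so they count as Mapkapk3 promoters too. The Mapkapk3 promoter nearest to Cish (chr9:107286161-107290404) differed little, at 94.7 in Control, 92.9 in IFNγ, 96.0 with PJ34 and 89.0 with IFNγ+PJ34.

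The best-scoring Cish region in both lists with IFNγ was an intergenic one 14.0 kb downstream of the nearest start site and past the 3′ end of the gene (chr9:107312252-107314257). It stood at the 93.6 percentile in Control, 98.5 in IFNγ, 86.7 with PJ34 and 99.9 with IFNγ+PJ34, which is rank 2782, 625, 5828 and 42. Its fold was 49.5 in Control, 49.4 in IFNγ, 18.4 with PJ34 and 91.4 with IFNγ+PJ34. By fold Control and IFNγ were nearly equal, and by percentile IFNγ was higher. Its width was 1629 to 2006 bp in each list. The order of the 4 lists by rank was the same as at the Socs1 promoter. It held the printed GAS match and no ISRE match, and 48.9% of windows of 2006 bp held a GAS match.

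**Figure D4:**
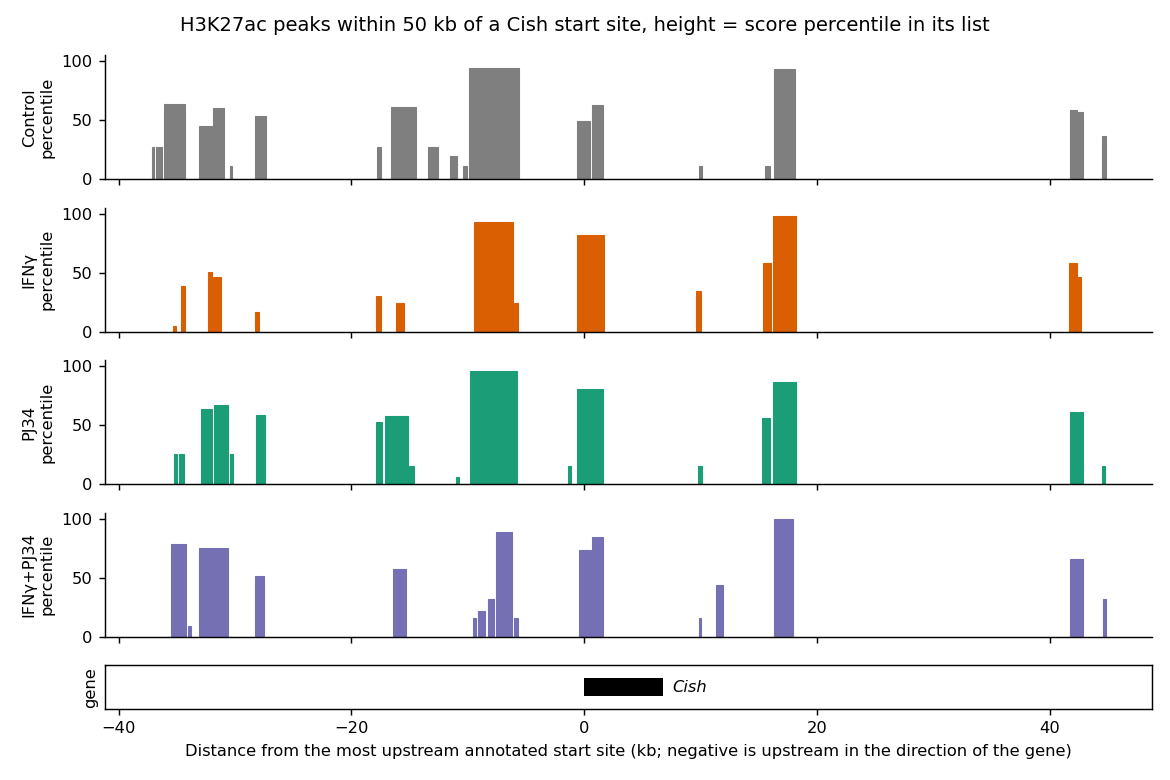
H3K27ac peaks around Cish in the 4 lists, drawn as distance from the most upstream start site in kb against score percentile, with the gene as a black bar. Upstream, over Mapkapk3, the IFNγ track has fewer and mostly lower bars than the Control track, and the tall bar downstream of the gene is drawn in all 4 tracks, farther out than its distance to the nearest of the 5 start sites.

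With PJ34 in both lists, 3 of 10 Cish regions stood more than 10 points higher in IFNγ+PJ34 than in PJ34 and none lower, against 22.1% and 30.9% of all such regions, the first share being near the background. They were the downstream region above (13.2 points), the 6430571L13Rik promoter (16.4) and the region 34.7 kb upstream within Mapkapk3 (53.7). The last (chr9:107259931-107261829) stood at 64.0 in Control, 38.4 in IFNγ, 25.3 with PJ34 and 79.0 with IFNγ+PJ34. Of 19 PJ34 peaks at Cish 1 was absent from Control, against 19.5% of all PJ34 peaks, and of 17 peaks in IFNγ+PJ34 2 were absent from PJ34, against 25.7% of that list.

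Socs2 carried little H3K27ac in Control, IFNγ and PJ34, and near the median of all genes in IFNγ+PJ34 (chr10:95385362-95417180, minus strand, 12 start sites). It had 2 peaks in Control, 1 in IFNγ, 2 with PJ34 and 3 with IFNγ+PJ34, covering 0.475, 0.362, 0.655 and 2.88 kb, where the median gene had 3.27, 2.71, 2.91 and 2.70 kb. Its promoter had a peak in PJ34 alone (chr10:95416448-95416752, 305 bp, percentile 42.5, fold 4.75), which it shares with the divergent noncoding gene 5730420D15Rik. The pair of GAS matches printed above lies outside that peak, and the peak held no match. The only region found in all 4 lists lay 24.7 kb downstream of the nearest start site (chr10:95367414-95368580). Its percentile there was 26.9 under Control, 4.55 under IFNγ, 15.3 under PJ34 and 87.2 under IFNγ+PJ34, with folds of 3.49, 2.73, 3.06 and 26.6 and covered lengths of 475, 362, 350 and 1146 bp. IFNγ+PJ34 was thus the highest list there by percentile, fold and length. The region held 1 strict GAS match, and 4.78% of windows of 1167 bp held one. That match lies inside the IFNγ+PJ34 peak and outside the peaks of the other lists. Close by, 2 further regions at 21.3 and 23.8 kb were found in IFNγ+PJ34 alone, at percentiles of 31.8 and 41.0.

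**Figure D5:**
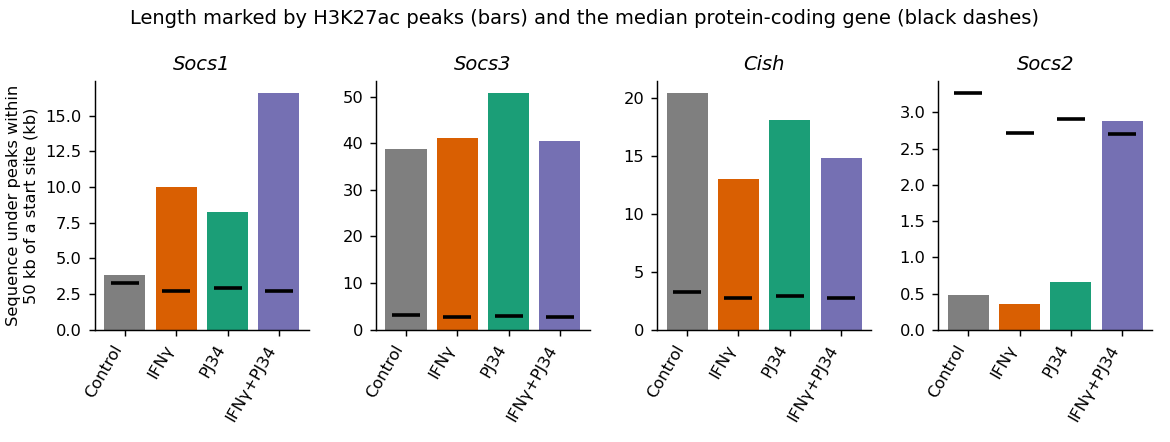
Sequence under H3K27ac peaks within 50 kb of a start site, in kb, for each gene (bars, 1 per list, axis from 0 and scaled separately in each panel), with the median of all protein-coding genes as black dashes. Socs1 and Socs2 have their tallest bar in IFNγ+PJ34 (16.6 and 2.88 kb), Socs3 in PJ34 (50.8 kb) and Cish in Control (20.4 kb).

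Over the 4 genes together, 11 of 49 IFNγ peaks were gained (22.4%, 95% interval 11.8 to 36.6), which lies near the 16.8% of the whole list, and they came from Socs1 and Socs3. At least 1 gained peak lay near 2 of the 4 genes and near 28.2% of protein-coding genes, and at least 1 region of IFNγ and IFNγ+PJ34 alone near 2 of the 4 and near 7.97%. Of the 11 gained peaks IFNγ+PJ34 held 9 (81.8%, 95% interval 48.2 to 97.7) and PJ34 held 5 (45.5%, 95% interval 16.7 to 76.6). Of all gained peaks, these lists held 38.8% and 43.6%. The first interval lies above its background, but the share depended on the setting. It was 83.3% when a peak within 1 kb counted as shared (5 of 6, 35.9 to 99.6). With only the top 50% of peaks by score kept, it was 33.3% (2 of 6, 4.33 to 77.7). The share of all gained peaks was not worked out at either setting. Whether these intervals lie above their own background is therefore not known. The 11 peaks are neighbours in 2 loci and not independent. Of 48 peaks in IFNγ+PJ34, 12 were absent from IFNγ (25.0%, 95% interval 13.6 to 39.6) against 27.2% of the list, and 15 were absent from PJ34 (31.2%, 95% interval 18.7 to 46.3) against 25.7%, both shares near their background. Among the 59 regions, 20 were found in all 4 lists (33.9%, against 38.9% of all regions), 11 in IFNγ+PJ34 alone (18.6%, 95% interval 9.69 to 30.9, against 10.4%) and 11 in PJ34 alone (18.6%, 95% interval 9.69 to 30.9, against 8.93%). Of the 20 regions found in all lists, fold was highest in IFNγ+PJ34 in 13 (65.0%, against 23.6% of 21468 such regions), in PJ34 in 5 (25.0%, against 23.8%), in IFNγ in 2 (10.0%, against 10.9%) and in Control in 0 (against 41.7%), a count made after the values were seen. The IFNγ+PJ34 list also had the highest median fold, 6.32. The 4 regions found in Control alone all belonged to Cish, and the share of all regions found in Control alone was not counted.

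Of 23 regions in both Control and IFNγ, 8 stood more than 10 points higher in IFNγ (34.8%, 95% interval 16.4 to 57.3, against 14.9% of all such regions) and 5 lower (21.7%, 95% interval 7.46 to 43.7, against 28.7%). The covered length was over 1.5 times as large in IFNγ in 3 of the 23, against 6.96% of all such regions, and the 3 were the Socs1 promoter, the region 46.7 kb upstream of Socs3 and that 12.8 kb downstream of Cish. Of 22 regions in both PJ34 and IFNγ+PJ34, 5 stood more than 10 points higher in IFNγ+PJ34 (22.7%, near the 22.1% of all such regions) and 3 lower (13.6%, 95% interval 2.91 to 34.9, against 30.9%). The covered length was over 1.5 times as large in IFNγ+PJ34 in 4 of the 22, against 13.7% of all such regions, and the 4 were the Socs1 promoter, the region 24.7 kb downstream of Socs2, that 46.7 kb upstream of Socs3 and that 34.7 kb upstream of Cish. At promoters, the percentile in IFNγ minus that in Control was 3.45 at Socs1, 5.43 at Socs3 and 19.6 at Cish, where the median of 10878 protein-coding genes was -1.37 and 3.85% of genes exceeded 10 points. In IFNγ+PJ34 minus PJ34 it was 5.83, 3.64 and 3.44 in the same order, and the median of 10893 genes was -4.12. Socs1 and Socs3 already stood at 96.5 and 91.8 in Control, which leaves little room upwards on this scale.

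GAS matches were denser in the SOCS peaks than in the lists as a whole, with and without IFNγ. In IFNγ the 49 peaks held 42 matches, 0.650 per kb (95% Poisson interval 0.468 to 0.878) against 0.341 per kb in the list. In Control the density was 0.566 per kb against 0.316 in the list, in PJ34 0.527 against 0.321 and in IFNγ+PJ34 0.548 against 0.353. The strict pattern stood at 0.139 per kb in the IFNγ peaks against 0.0410 in the list. A control pattern with the ends exchanged, GAANNNTTC, stood at 0.124 per kb against 0.250, and ISRE at 0.186 against 0.183. Within 100 bp of the summits GAS stood at 0.305 per kb (3 matches) against 0.288 in IFNγ and at 0.518 (5 matches) against 0.295 in IFNγ+PJ34, too few matches to place the difference within the peaks. The peaks of the 4 lists overlap, so these densities are not independent of one another.

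Other inhibitors of the pathway were described from a list of 15 genes. All 15 had a promoter peak in every list, 9 had a gained peak within 50 kb and 5 had a region held by both lists with IFNγ and by no other, where 28.2% and 7.97% of all genes did. None of the 15 promoters stood more than 10 points higher or lower in IFNγ, and the median difference was -1.40 (range -8.40 to 4.00). The highest gained peaks belonged to Ptpn2, a phosphatase that acts on JAK and STAT proteins, with 5 gained peaks and the best at the 73.9 percentile (fold 12.1), and to Pias3, an inhibitor of STAT3, with 3 and the best at 63.8 (fold 6.83). Ptpn1 had 5 gained peaks with the best at 41.2, Socs6 2 at 41.2, the tyrosine phosphatase gene Ptprc 3 at 34.3, Pias1 1 at 29.9, Socs7 2 at 17.0, Ptpn6 3 at 10.4 and Pias4 1 at 0.723. Socs4, Socs5, Ptpn11, Pias2, Usp18 and Sh2b3 had none. Heavily marked genes have more peaks of every kind near them, and this was not adjusted for.

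The 10 genes upstream in the pathway were the receptor genes Ifngr1 and Ifngr2, the kinase genes Jak1, Jak2 and Tyk2 and 5 STAT genes. All 10 had a gained peak within 50 kb, where 28.2% of protein-coding genes did, again with no adjustment for how heavily genes are marked. Ifngr1 and Ifngr2 had 1 each, at the 4.55 percentile. Stat3, Stat5a and Stat5b had a best gained peak of the same percentile and fold (46.7 and 5.04), so these genes may share a peak. Jak1 had the most, with 7 gained peaks and 3 regions of IFNγ and IFNγ+PJ34 alone, followed by Stat3 with 5 gained peaks. Jak2 had the highest, at the 81.8 percentile (fold 16.8). Stat6 had 1 region of IFNγ and IFNγ+PJ34 alone and the other 8 none, where 7.97% of protein-coding genes had at least 1. The promoter percentile in IFNγ minus Control had a median of -0.650 (range -6.10 to 5.00), and no promoter differed by more than 10 points.

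Genes whose marked length over the 4 lists was closest to that of each SOCS gene were found by Euclidean distance in kb, over 4 points and with no test. For Socs1 these were Ildr1 (distance 2.64 kb), Hibadh (3.79) and Tmbim6 (3.90). Ildr1, the nearest, had 3.98 kb in Control, 10.7 in IFNγ, 6.66 with PJ34 and 14.6 with IFNγ+PJ34. For Socs3 they were Cdk6 (5.63), Rgl1 (6.25) and Vav1 (8.05), for Cish Trappc8 (1.10), Tpm2 (1.28) and Eif2a (1.30), and for Socs2 Ky (0.486), Gm9833 (0.502) and Sgip1 (0.535).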

How the data were processed

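H3K27ac was measured by ChIP-seq in BMDMs under 4 conditions, with 8 ChIP and 8 input samples. The authors aligned reads to mm10 with Bowtie, ran MACS on every replicate against input with a lenient p-value of 0.01, and used BEDTools to keep peaks seen in both replicates. The deposited score is a whole number from 10 to 1000 per peak. The deposited fold enrichment is a ratio to local background. The deposited −log10 p-value and −log10 q-value are those of the authors' peak caller. No counts are held, so depth is unknown.

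The 4 genes and all gene lists were chosen with earlier results of these data known. All 4 genes were named. Every merged region near them was counted, and not every one is described singly. Other pathway genes were named by fixed lists, with values for inhibitors that had a gained peak. Likeness was given by the 3 nearest genes more than 100 kb away. Groups came from the sample titles. A peak was shared at 1 bp of overlap. Promoter meant within 1 kb of a start site in GENCODE M21, which is on the same build. Distances run from the summit to the nearest annotated start site. Sequence came from GRCm38.p6 and the RefSeq promoter table, which held Socs1, Socs3 and Cish. No test was made, since each condition had 1 list. Scripts used Python 3.11.15, pandas 2.3.3 and scipy 1.17.1, and 9 checks were tested on simulated data. Other overlaps, windows, thresholds, rankings and motifs were tried. Ranking by −log10 p, the ISRE pattern, the count of the list with the highest fold and the values of Socs1 and Socs3 alone were additions made once the data were known.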

Additional observations from a re-analysis of the deposited data

Results flagged for a closer look

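In 4 regions found in all lists the percentile differed with IFNγ by more than 10 points one way without PJ34 and by more than 10 points the other way with it, and 1 region was found in IFNγ and PJ34 alone. Smaller differences, and regions missing from 1 list, were not counted. These differences were not tested, since each condition had 1 list, and their cause was not tested. The 4 were among 20 regions near the 4 genes found in all lists. How many of all regions show either pattern was not counted, so neither count has a background. Of all regions in both Control and IFNγ, 14.9% stood more than 10 points higher in IFNγ and 28.7% lower. With PJ34 in both lists the shares were 22.1% and 30.9%. The region 24.7 kb downstream of Socs2 was lower by IFNγ alone (by -22.4 percentile points against Control) and higher by IFNγ with PJ34 (71.8 points against PJ34), a gap of 94.2 points. The region 34.7 kb upstream of Cish, within Mapkapk3, went the same way (-25.5 and 53.7 points, a gap of 79.2). The reverse was seen at the region 27.3 kb downstream of Socs3 (13.6 and -71.0 points, a gap of -84.6) and at that 48.8 kb upstream of Socs3, in an intron of Pgs1 (24.9 and -11.9 points, a gap of -36.8). At the latter the score was 12 with PJ34 and 11 with IFNγ+PJ34, neighbouring values among the lowest, where scores are tied. The folds there were 2.52 and 2.22, and the covered length was larger with IFNγ+PJ34, at 1499 bp against 1268 bp. The region 30.8 kb upstream of Socs3 was found in IFNγ and in PJ34 and in neither Control nor IFNγ+PJ34, with its higher percentile at 52.9 in PJ34. At the Socs3 and Cish regions the widths and peak numbers also differed between lists, and where a list split a region into several peaks the percentile is that of the best one.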

How the results depend on the processing

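Of 47 alternative values for the 4 shares, the 3 promoter differences and the GAS density, 39 stayed within the interval of the value reported (or within 10 points for a promoter difference), and no promoter difference changed sign. The other 8 follow. With a window of 10 kb, IFNγ+PJ34 held 100% of gained peaks and PJ34 100% (2 of 2 peaks each, both at Socs3), and the share of IFNγ+PJ34 peaks absent from PJ34 was 11.1%. With the higher-scoring 50% of each list, IFNγ+PJ34 held 33.3% of gained peaks (2 of 6). When a peak within 1 kb counted as shared, PJ34 held 16.7% of gained peaks. The GAS density was 0.139 per kb for the strict pattern, 0.305 around summits and 0.124 for the control pattern. The 5 gained peaks at Socs1 stayed 5 of 5 in IFNγ+PJ34 and 0 of 5 in PJ34 with 50% overlap, 1 kb of leeway, summits, q under 0.01 and lists of equal size. In the higher-scoring 50%, 1 gained Socs1 peak was left, which IFNγ+PJ34 held and PJ34 did not, and within 100 kb IFNγ+PJ34 held 9 of 11 and PJ34 held 3. At Socs3, IFNγ+PJ34 held 0 of 3 and PJ34 1 of 3 gained peaks in the higher-scoring 50%, against 4 of 6 and 5 of 6. Socs2 had no promoter peak in Control or IFNγ and hence no promoter difference. No paired analysis was possible because the authors made each list from both replicates, which also means that leaving out a replicate was not possible. Presence depends on the peak caller's threshold and on depth, which is unknown, so an absent peak may be a weaker one.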
